A study of Homo sapiens with 6 samples.

Results

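SR proteins, heterogeneous nuclear ribonucleoproteins (hnRNPs) and the SF3 and U2AF subunits of the splicing machinery were examined in HT1080 cells, a human fibrosarcoma line, with and without a knockout of TOP3B, a topoisomerase with activity towards RNA as well as DNA. The members were chosen by symbol alone: genes named SRSF, HNRNP, SF3A, SF3B or U2AF followed by their family letters and digits, without the 122 pseudogene symbols of the same families. This gave 40 of the 35820 genes in the deposited tables, of which 12 are SRSF genes, 18 are HNRNP genes and 10 are SF3 or U2AF genes. SRSF12 had no count in any library, so 39 members passed the filter on low counts and were tested among 13965 genes. HNRNPH2, HNRNPA0 and SF3B5 fit the same naming but were not among the 40 genes found by it, so they were not analysed here.

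The 2 groups were wild-type (WT) HT1080 cells and HT1080 TOP3B knockout cells, with 3 libraries each. The knockout was made with CRISPR and a guide to exon 2 of TOP3B, and all its libraries came from 1 clone, so the knockout and any other difference of that clone from the WT cells cannot be told apart. Both groups were grown in the same serum-supplemented medium with no other agent given in the labels. Total RNA was depleted of ribosomal RNA and sequenced as strand-specific paired-end libraries. Whether the libraries of a group came from separate cultures is not stated, and the p-values therefore reflect a library-to-library spread that may be purely technical. The series text names HCT116, a colorectal carcinoma line, in 1 place, whereas the sample labels give HT1080 throughout.

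SR proteins carry RNA recognition motifs and a tail rich in arginine and serine, bind exonic enhancers and recruit the early splicing machinery. The hnRNPs coat nascent transcripts, and many of them bind silencer elements and oppose SR proteins at neighbouring splice sites. U2AF recognises the polypyrimidine tract and the AG at the end of an intron, and the SF3A and SF3B complexes then anchor the U2 snRNP on the branch site. Transcripts of many of these genes hold exons or introns whose inclusion or retention sends the RNA to nonsense-mediated decay, by which the proteins limit their own level.

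The 6 libraries held 17919106 to 20475280 counts on genes. Knockout replicate 3 stood apart: the SD over genes of its log2 difference from the other knockout libraries was 0.634 to 0.659, against 0.254 between knockout replicates 1 and 2 and 0.282 to 0.335 within WT. Mitochondrial genes took 5.70% of its counts and 8.23% to 10.0% in the others. GAPDH had 18865 counts in it and 3265 to 5005 in the others. Member values that this library moved by over 1.5 times, or whose call or direction it changed, are also given without it. TOP3B itself had 30.5, 19.1 and 23.1 CPM (counts scaled to a common library size) in WT and 20.02, 19.3 and 18.5 in the knockout, with a log2 fold change of -0.33 ± 0.19 (SE; edgeR's quasi-likelihood test with p adjusted by Benjamini-Hochberg over all genes, adjusted p = 0.342). Small edits in an exon need not lower the transcript, so this gene-level value does not check the labels. Mesenchymal markers, 12 of 12 of them in the table and led by VIM, summed to 30215 to 31265 CPM in WT and to 18630 to 20514 CPM in the knockout. Colorectal epithelial markers, 13 of 14 in the table, summed to 109 to 122 CPM in WT and 112 to 137 CPM in the knockout, with KRT20, CDX2 and CDH17 at 0. The part of either list in the members' values was not tested.

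Levels of different genes were compared on the deposited RPKM scale, reads per kilobase scaled to library size. In WT the members ranged from HNRNPA1 at 602 ± 36.3 RPKM (SD, n = 3) down to HNRNPUL2 at 0.0480 ± 0.0299. HNRNPA1 encodes the archetypal splicing silencer of the family, and it was followed by SRSF1, the founding SR protein, at 362 ± 10.4 RPKM. The next levels were HNRNPU, a nuclear scaffold protein, at 174 ± 4.24, HNRNPL, which binds CA repeats, at 123 ± 2.04, and HNRNPDL, an AU-rich element binder, at 115 ± 4.21 RPKM. SRSF2, an exonic enhancer binder known as a marker of nuclear speckles, followed at 86.3 ± 20.4 RPKM. The intervals of 1 SD of HNRNPL and HNRNPDL did not overlap, while those of SRSF3 (66.8 ± 0.304) and HNRNPK (65.6 ± 3.76), the eighth level, did. Among the SF3 and U2AF genes the highest WT levels were SF3B2 at 49.2 ± 2.26, U2AF2 at 37.2 ± 2.61 and SF3B3 at 36.7 ± 0.755 RPKM, and the lowest was SF3B6 at 1.18 ± 0.0718 RPKM.

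**Figure D1:**
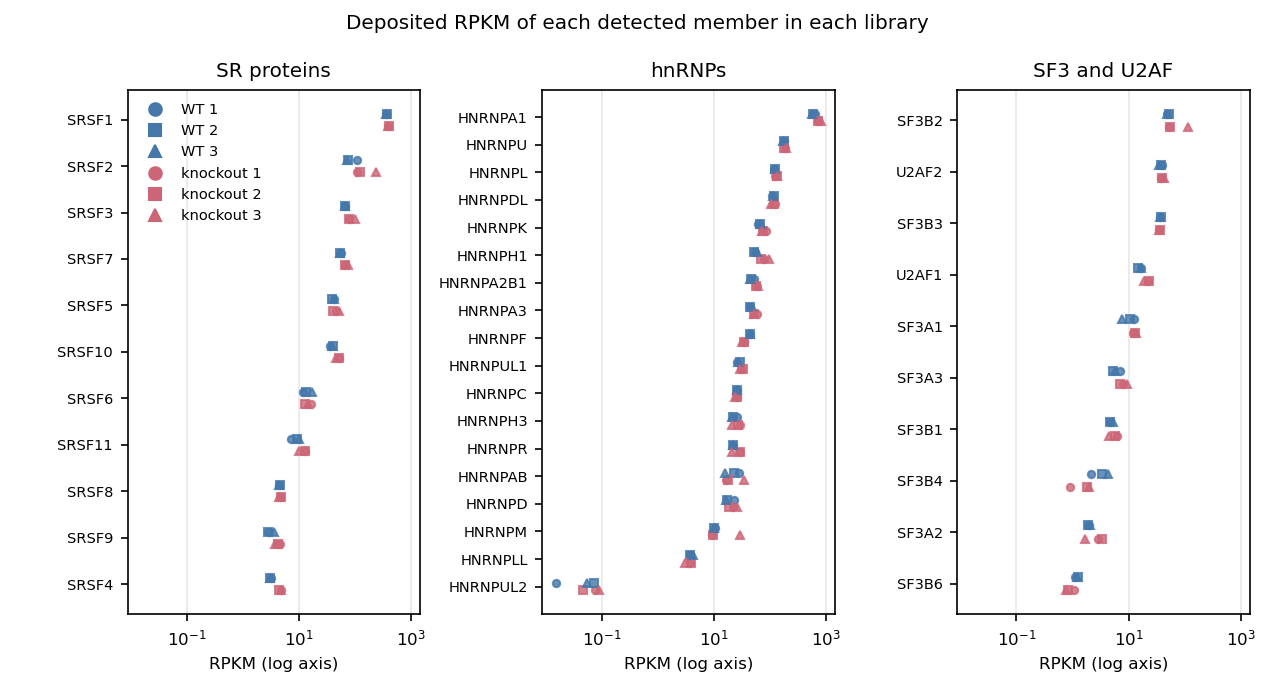
Deposited RPKM (log axis) of the 39 members with counts, one point per library, with WT in blue and the TOP3B knockout in red, in families ordered by WT level. HNRNPA1 and SRSF1 lie highest, and knockout replicate 3 lies apart from the other knockout libraries for SRSF2, HNRNPM and SF3B2.

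The order of levels depended on the length used. The length implied by the deposited RPKM tracked the average distance from start to end of a gene's transcripts on the genome, introns included (Spearman rho 0.983, a correlation across 13035 genes that are not independent), and tracked the summed exon length less closely (rho 0.559). The exon length joins all annotated transcripts of a gene, those with retained introns included. It need not be the length of any 1 transcript. Per kilobase of exon, SRSF1 came first at 320 ± 9.20 and HNRNPA1 second at 306 ± 18.5 CPM per kilobase, less than 1 SD of HNRNPA1 apart. HNRNPF, which binds G-rich tracts, moved from rank 14 by RPKM to rank 3 at 229 ± 3.92 CPM per kilobase of exon. HNRNPC, which binds uridine tracts of nascent RNA, moved from rank 20 to rank 4 at 161 ± 2.09 CPM per kilobase of exon. Genes often used as references of level had few counts beside the highest members. In WT, ACTB had 1531 to 1804 counts, EEF1A1 291 to 1638 and GAPDH 4033 to 5005, against 29814 to 31414 for HNRNPA1. The reason was not tested, and the order of levels between genes is uncertain beyond the choice of length. Levels between genes are therefore a description on a named scale, whereas the comparisons of groups below are within a gene.

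Between the groups, 3 of the 39 tested members were called at an adjusted p below 0.05: SRSF4 and HNRNPH1 rose in the knockout and HNRNPF fell. That is 7.69% of the members, near the 7.84% of all tested genes that were called in either direction (3.21% higher and 4.63% lower). At 50 CPM or more on average, a level that 33 members reached, 13.3% of genes were called. In bulk RNA, fewer cells expressing a gene and less RNA per cell cannot be told apart, which holds for every fold change here.

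SRSF4 encodes SRp75, the SR protein with the longest arginine-serine tail. It stood at 69.6, 66.3 and 64.4 CPM in WT and at 101, 93.5 and 97.0 CPM in the knockout. The groups did not overlap, and each knockout library lay above every WT library by more than the spread within either group. The log2 fold change was 0.54 ± 0.09 (SE; edgeR quasi-likelihood test, adjusted p = 0.0212), or 1.46-fold. Without knockout replicate 3 it was 0.54 (edgeR adjusted p = 0.0120), and the call was lost when any other library was left out (highest adjusted p = 0.101).

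HNRNPH1 encodes hnRNP H, which binds runs of G and can enhance or silence exons depending on where it sits. Its WT libraries held 310, 306 and 331 CPM and its knockout libraries 447, 391 and 511 CPM. All knockout libraries were higher than all WT libraries, with knockout replicate 3 the highest. The log2 fold change was 0.51 ± 0.11 (SE; edgeR quasi-likelihood test, adjusted p = 0.0408), and without knockout replicate 3 it was 0.40 (edgeR adjusted p = 0.0229). The call was lost in 4 of the 6 fits that left out a library (highest edgeR adjusted p = 0.165), without the filter on low counts (adjusted p = 0.0510) and in limma on log2(RPKM + 1) (adjusted p = 0.0553).

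HNRNPF encodes hnRNP F, a close relative of hnRNP H with the same preference for G-tracts. It fell from 768, 778 and 735 CPM in WT to 589.5, 588 and 501 CPM in the knockout. Here every knockout library was below every WT library, with knockout replicate 3 the lowest. The log2 fold change was -0.44 ± 0.09 (SE; edgeR quasi-likelihood test, adjusted p = 0.0312), and without knockout replicate 3 it was -0.38 (edgeR adjusted p = 0.00616). Leaving out any other library raised the adjusted p above the threshold, to at most 0.124, with the same sign.

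**Figure D2:**
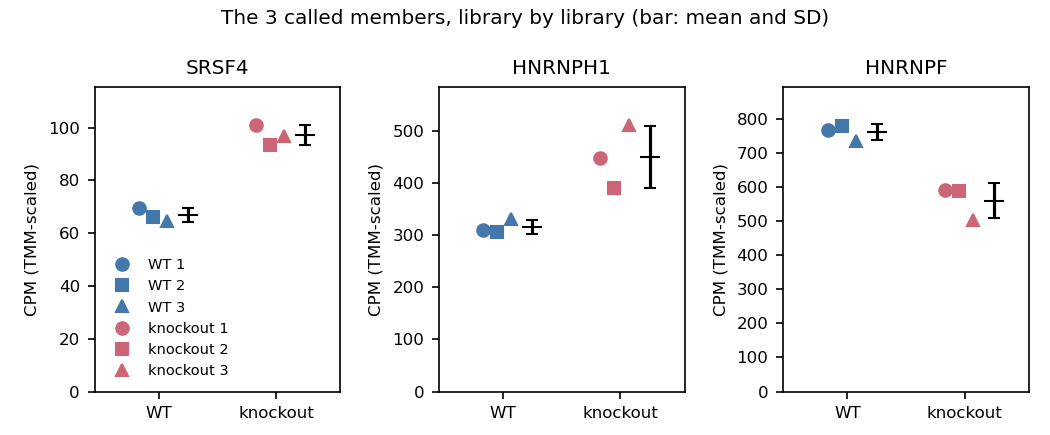
CPM (axis from 0) of SRSF4, HNRNPH1 and HNRNPF in each WT (blue) and knockout (red) library, with the mean and SD of each group as black bars. In all 3 panels the groups do not overlap: SRSF4 and HNRNPH1 are higher in the knockout and HNRNPF is lower.

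These opposite shifts of HNRNPH1 and HNRNPF changed their ratio. The ratio of HNRNPH1 to HNRNPF RPKM was 1.21, 1.18 and 1.36 in the WT libraries, with a mean of 1.25 ± 0.0920 (SD, n = 3). In the knockout libraries it was 2.28, 2.00 and 3.06, with a mean of 2.45 ± 0.553 (SD, n = 3). Which gene is the higher depends on the length used: per kilobase of exon the ratio was 0.143 ± 0.0105 in WT and 0.279 ± 0.0631 in the knockout, and in CPM it was 0.416 ± 0.0306 and 0.814 ± 0.184. The exon length used was 9480 bases for HNRNPH1, over 50 annotated transcripts, and 3253 bases for HNRNPF, over 7. The groups could not overlap in RPKM, per kilobase of exon or in CPM, which differ only by a constant. That followed from the genes themselves, since the groups of neither overlapped and they moved in opposite directions. The sum of both genes was 1076 ± 8.95 CPM in WT and 1009 ± 29.4 CPM in the knockout. The pair was chosen after the values were seen, so the ratio is a description with no test. The third relative measured, HNRNPH3, had a log2 fold change of 0.09 ± 0.17 (edgeR adjusted p = 0.759), or 0.24 without knockout replicate 3 (edgeR adjusted p = 0.213).

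For SRSF4 and HNRNPF, the sequence just upstream of a RefSeq start is shown because these members changed and each window holds the same ETS-type letters (CCGGAAG or its complement CTTCCGG). The windows are from GRCh38.p14 and are cut to the stretch outside annotated exons. SRSF4 lies at chr1:29147743-29181987 on the minus strand and HNRNPF at chr10:43385617-43409166 on the minus strand (GENCODE release 29, GRCh38). The printed stretches are chr1:29181988-29182150 (163 bases) and chr10:43408883-43409089 (207 bases). The SRSF4 stretch ends just before the first annotated base of the gene, while the HNRNPF stretch lies within the annotated span of HNRNPF but in no exon. Both are written 5′ to 3′ on the minus strand, with motif matches in capitals. RefSeq lists 1 start for SRSF4 and 2 for HNRNPF, and few annotated transcripts begin within 50 bases of those shown: 2 of 8 for SRSF4 and 1 of 7 for HNRNPF.
SRSF4: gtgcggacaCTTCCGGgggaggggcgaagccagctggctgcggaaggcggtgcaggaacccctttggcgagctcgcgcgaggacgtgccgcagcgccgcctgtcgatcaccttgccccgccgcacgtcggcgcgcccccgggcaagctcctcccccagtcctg
HNRNPF: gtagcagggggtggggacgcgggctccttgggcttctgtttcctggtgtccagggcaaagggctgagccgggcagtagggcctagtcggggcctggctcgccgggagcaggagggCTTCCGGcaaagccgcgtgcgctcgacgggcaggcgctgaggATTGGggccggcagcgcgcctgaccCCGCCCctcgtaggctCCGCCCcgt
The capitals mark the ETS-type letters in both, and in HNRNPF also a CCAAT box (as ATTGG) and GC boxes (as CCGCCC).

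Across the families, 37 of the 40 members had a start in the RefSeq set used here, with 52 starts in all. HNRNPA1, SF3B3 and SRSF2 had none in that set, so they are outside the counts of letters. Over the 250 bases before a start, searched on both strands, the ETS-type letters were present at 12 of 52 member starts (23.1%) against 8.52% of 35116 starts of all genes. GC boxes (GGGCGG) were present at 59.6% against 42.6%, CCAAT at 36.5% against 32.0% and TATAAA at 11.5% against 10.7%. The CRE letters TGACGTCA were at 0 of the member starts and at 1.65% of all starts. GC content was also higher in the member windows, with a median of 65.0% against 58.0%, and starts of the same gene share sequence. The starts of all genes were not matched to the members for expression. HNRNPH1, at chr5:179614178-179634784 on the minus strand, held a GC box and no ETS-type letters in the window of its most used annotated start. These matches are descriptions of letters, and members with and without a change in level held them.

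Among SR proteins, every one of the 11 tested had a log2 fold change above 0 with the main scaling, although SRSF4 was the only one called. Their median was 0.31, against 0.05 over all 13965 genes, and 6 of the 11 had an unadjusted p below 0.05, a level that 24.7% of all genes reached. That share was not matched for abundance, and the median SE was 0.10 over the SR proteins and 0.25 over all genes. With DESeq2 size factors 9 of 11 were above 0 and the median was 0.30, since SRSF6 and SRSF8 lay within 0.02 of 0. The summed level of the family was 2954, 3026 and 2917 CPM in WT and 3469, 3473 and 3636 CPM in the knockout. The groups did not overlap, and the ratio of means was 1.19 (1.17 without knockout replicate 3). With 3 libraries against 3 an exact two-sided permutation test cannot go below p = 0.10, so no test is given for sums.

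SRSF3, the smallest SR protein and an adaptor for mRNA export, had 402, 404 and 396 CPM in WT and 464, 469 and 558 CPM in the knockout. SRSF7, which carries a zinc knuckle and also links splicing to export, had 322, 316 and 308 CPM in WT and 368, 377 and 392 CPM in the knockout. SRSF10, an SR protein that represses splicing when dephosphorylated, had 359, 406 and 372 CPM in WT and 500.4, 495 and 416.5 CPM in the knockout. In none of the 3 genes did the groups overlap. Their log2 fold changes were 0.31 ± 0.09, 0.27 ± 0.07 and 0.31 ± 0.10 (SE), with edgeR adjusted p = 0.0972, 0.0729 and 0.116. All 3 were called without knockout replicate 3 (edgeR adjusted p = 0.0302, 0.0316 and 0.0147), and the values moved in different directions: SRSF3 to 0.21, SRSF7 to 0.23 and SRSF10 to 0.38.

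SRSF2 had the largest log2 fold change of the family, 0.78 ± 0.30 (SE; edgeR adjusted p = 0.165). Its libraries held 258, 182 and 169 CPM in WT and 251, 284 and 511 CPM in the knockout. The groups overlapped, and knockout replicate 3 stood 1.91-fold above the mean of the other knockout libraries. Without it the log2 fold change was 0.39 (edgeR adjusted p = 0.223). SRSF2 lies opposite MFSD11 over 46.3% of its span, and no source used here says if strand was used in counting. SRSF1 had 1072, 1142 and 1058 CPM in WT and 1157, 1178 and 1101 CPM in the knockout, a log2 fold change of 0.07 with a 95% interval of -0.09 to 0.23. SRSF11 and SRSF9 had log2 fold changes of 0.38 ± 0.16 and 0.37 ± 0.15, SRSF5 of 0.10 ± 0.10, and SRSF6 and SRSF8 of 0.00 ± 0.16 and 0.01 ± 0.15, with edgeR adjusted p from 0.192 to 0.994 over these genes. Without knockout replicate 3, SRSF11 was at 0.50 and SRSF9 at 0.46 (edgeR adjusted p = 0.0597 and 0.0833). In the same fit SRSF5 was at 0.03, SRSF6 at 0.02 and SRSF8 at 0.06.

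**Figure D3:**
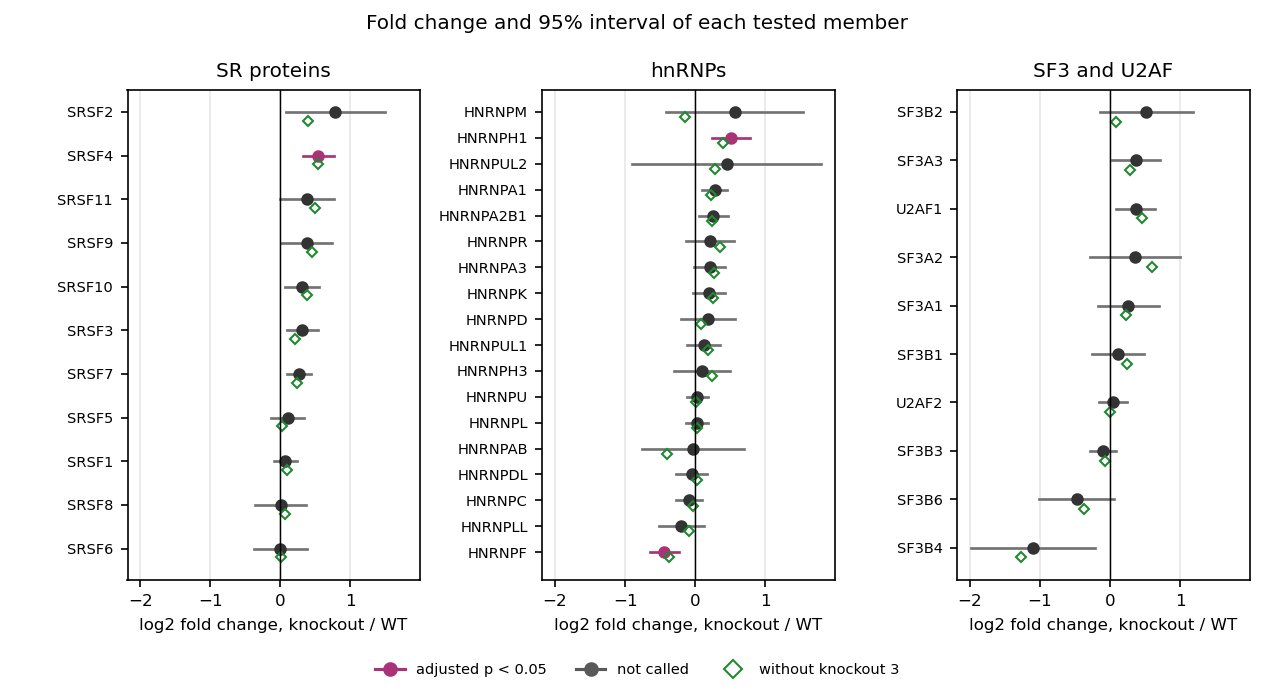
Log2 fold change, knockout over WT, of each of the 39 tested members with its 95% interval, by family, with called members in magenta and open green diamonds for the value without knockout replicate 3. All SR proteins lie at or above 0, HNRNPF and SF3B4 lie lowest in their families, and HNRNPM crosses 0 when replicate 3 is left out.

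Of the 18 hnRNPs tested, 1 rose, 1 fell and 16 were not called, so that 11.1% were called, against 7.84% of all genes. Their median log2 fold change was 0.15, with values above 0 in 13 (72.2%, against 53.7% of all genes). Their summed level was 11588, 11531 and 10979.5 CPM in WT and 12423, 12102 and 12096 CPM in the knockout, groups that did not overlap and whose means differed 1.07-fold.

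HNRNPA1 held 1698, 1593 and 1490.2 CPM in WT and 1894, 1864 and 2031 CPM in the knockout, so that all knockout libraries were above all WT libraries. Its log2 fold change was 0.28 ± 0.08 (SE; edgeR adjusted p = 0.0794), and 0.23 without knockout replicate 3 (edgeR adjusted p = 0.0561). It has 74 pseudogenes in the table, which together took 1.47% of the counts of the gene and its copies, and reads shared between them are uncertain. HNRNPA2B1, its partner in many ribonucleoprotein particles and a reader of silencer elements, had 792, 706 and 668 CPM in WT and 876, 839 and 878 CPM in the knockout. These groups did not overlap either, at a log2 fold change of 0.26 ± 0.08 (edgeR adjusted p = 0.118). HNRNPA3 and the poly-C binder HNRNPK also had every knockout library above every WT library, with log2 fold changes of 0.21 ± 0.09 and 0.19 ± 0.10 (edgeR adjusted p = 0.232 and 0.272).

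Other abundant hnRNPs were not called. HNRNPU had 1703, 1711 and 1605 CPM in WT and 1722, 1683 and 1726 CPM in the knockout, and its interval for the log2 fold change was -0.12 to 0.18. HNRNPL had 985.5, 1033 and 993 CPM in WT and 1007, 1049.8 and 1005 CPM in the knockout, with an interval of -0.13 to 0.18. HNRNPDL had 643, 701.5 and 659.6 CPM in WT and 692, 670.5 and 573 CPM in the knockout, with an interval of -0.27 to 0.17. The groups of all 3 overlapped, and changes inside these intervals could not be told from none. Without knockout replicate 3 their log2 fold changes were 0.02, 0.03 and 0.02, which turned the sign of HNRNPDL. HNRNPC had a log2 fold change of -0.09 with an interval of -0.28 to 0.10, and it was at -0.03 without that library.

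HNRNPR, a paralogue of SYNCRIP that binds mRNA in nucleus and cytoplasm, had 580.5, 598.5 and 582 CPM in WT and 762, 752 and 526 CPM in the knockout. Its replicate 3 lay below all WT libraries and the other knockout libraries above them, so the groups overlapped. The log2 fold change was 0.21 ± 0.15 (edgeR adjusted p = 0.414), and without knockout replicate 3 it was 0.36 and called (edgeR adjusted p = 0.00559). HNRNPM, a regulator of exons in mesenchymal cells, went the other way, at 226, 218 and 208 CPM in WT and 192.5, 202 and 569 CPM in the knockout. Its log2 fold change of 0.56 ± 0.41 (edgeR adjusted p = 0.443) became -0.15 without replicate 3 (edgeR adjusted p = 0.175), so its direction rested on 1 library. HNRNPLL, known for silencing exons in lymphocytes, had 98.2, 103 and 110.2 CPM in WT and 96.9, 99.7 and 74.6 CPM in the knockout, overlapping groups with a log2 fold change of -0.20 ± 0.14 (edgeR adjusted p = 0.416), or -0.09 without replicate 3.

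For the remaining hnRNPs the log2 fold changes were 0.18 ± 0.16 for the AU-rich element binder HNRNPD, 0.12 ± 0.10 for HNRNPUL1, -0.03 ± 0.31 for HNRNPAB and 0.45 ± 0.57 for HNRNPUL2, none called (edgeR adjusted p from 0.490 to 0.965). HNRNPAB is overlapped on the opposite strand by PHYKPL over 40.1% of its span, and its knockout replicate 3 was 1.88-fold above the other knockout libraries. Without that library HNRNPAB was at -0.41 ± 0.22 (edgeR adjusted p = 0.283), so its value near 0 rested on 1 library. HNRNPD was then at 0.09, HNRNPUL1 at 0.18 and HNRNPUL2 at 0.28, none called. HNRNPUL2 had only 0.171 to 0.716 CPM in any library. The read-through gene HNRNPUL2-BSCL2, which covers 99.4% of its span on the same strand, held 27543 counts over all libraries, so the level of HNRNPUL2 alone is uncertain.

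No SF3 or U2AF gene was called by edgeR (0 of 10, against 7.84% of all genes). Of the 10, 3 had an unadjusted p below 0.05, a level that 24.7% of all genes reached, with no matching for abundance. DESeq2 called 1 of 10, against 13.5% of all genes. Their median log2 fold change was 0.18, with 7 above 0 (70.0%, against 53.7% of all genes) and 3 below. The summed level was 1463, 1437 and 1359 CPM in WT and 1514, 1555 and 1750.1 CPM in the knockout, groups that did not overlap, with a ratio of means of 1.13 and of 1.08 without knockout replicate 3.

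The U2AF heterodimer was measured through both subunits. U2AF1, the subunit that reads the AG of the 3′ splice site, had 161, 147 and 165 CPM in WT and 216, 220.1 and 174 CPM in the knockout. No knockout library fell within the WT range, and the log2 fold change was 0.37 ± 0.12 (SE; edgeR adjusted p = 0.113), or 0.46 without knockout replicate 3 (edgeR adjusted p = 0.0132, called). U2AF2, the subunit that binds the polypyrimidine tract, had 446, 420.1 and 382 CPM in WT and 414, 424 and 444 CPM in the knockout, overlapping groups with a log2 fold change of 0.04 and an interval of -0.16 to 0.24 (0.00 without knockout replicate 3). The difference between the subunits was not tested.

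Within SF3B, SF3B1, the branch-site subunit mutated in several cancers, had a log2 fold change of 0.11 ± 0.16 (edgeR adjusted p = 0.710), or 0.24 without knockout replicate 3 (edgeR adjusted p = 0.136). SF3B2 had 254, 276 and 247 CPM in WT and 266, 286 and 559.5 CPM in the knockout. Its replicate 3 was 2.03-fold above the other knockout libraries, and the log2 fold change of 0.52 ± 0.28 (edgeR adjusted p = 0.309) became 0.08 without it. SF3B3 had 303, 319.7 and 302 CPM in WT and 289, 299 and 271 CPM in the knockout, groups that did not overlap although the log2 fold change was only -0.11 ± 0.08 (edgeR adjusted p = 0.438). SF3B4, which contacts the pre-mRNA upstream of the branch site, had the largest change in size of any member, at 6.21, 9.84 and 12.2 CPM in WT and 2.61, 5.29 and 5.27 CPM in the knockout. Those groups did not overlap, and the log2 fold change was -1.10 ± 0.37 (SE; edgeR adjusted p = 0.128), with DESeq2 giving an adjusted p of 0.0468. SF3B6, the subunit that touches the branch-point adenosine, had 6.44, 7.35 and 6.89 CPM in WT and 6.001, 4.68 and 4.14 CPM in the knockout, without overlap and with a log2 fold change of -0.48 ± 0.23 (edgeR adjusted p = 0.246).

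SF3A was measured through all 3 of its subunits, which form a stable complex. SF3A3 had 76.1, 57.5 and 62.1 CPM in WT and 84.9, 75.5 and 93.0 CPM in the knockout, overlapping groups with a log2 fold change of 0.37 ± 0.15 (edgeR adjusted p = 0.173). SF3A2 had 15.2, 14.8 and 15.7 CPM in WT and 21.6, 24.7 and 11.97 CPM in the knockout. Its replicate 3 was 0.517 times the mean of the other knockout libraries, and without it the log2 fold change of 0.35 ± 0.27 (edgeR adjusted p = 0.461) became 0.60 (edgeR adjusted p = 0.0337, called). SF3A1 had a log2 fold change of 0.26 ± 0.18 (edgeR adjusted p = 0.432).

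**Figure D4:**
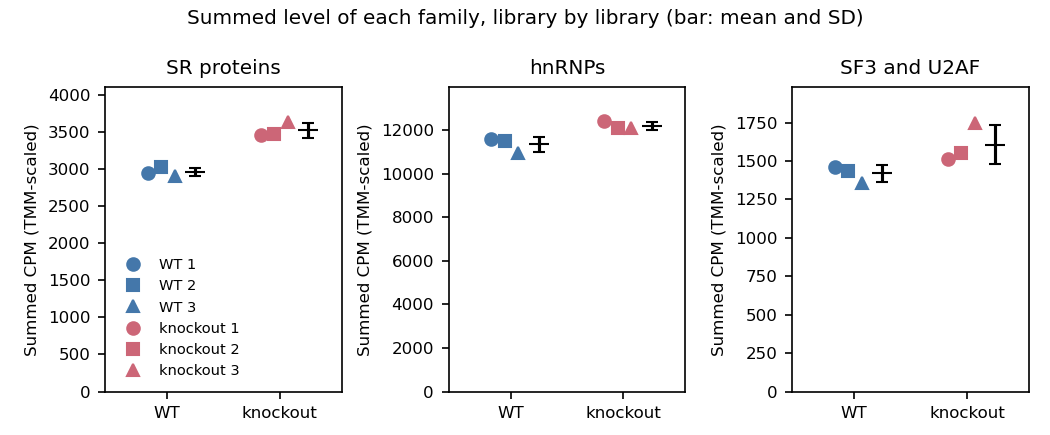
Summed CPM (axes from 0) of each family in each WT (blue) and knockout (red) library, with the mean and SD as black bars. The knockout libraries lie above the WT libraries in all 3 families, by a ratio of means of 1.19 for SR proteins, 1.07 for hnRNPs and 1.13 for SF3 and U2AF.

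Taking all members, 31 of 39 (79.5%) had a log2 fold change above 0, against 53.7% of all genes and 44.0% of those averaging 50 CPM or more. Their median was 0.19, against 0.05 over all genes and -0.05 over genes of at least 50 CPM. Under the other scalings the number above 0 was 29 with DESeq2 size factors and 33 with library size alone. Every knockout library was above every WT library in 10 members (25.6%, against 16.5% of all genes) and below in 4 (10.3%, against 17.1%). The members together took 1.51% to 1.57% of all counts in WT and 1.72% to 1.85% in the knockout. The shares of genes without overlap were not matched for level, and 33 of the members averaged 50 CPM or more. Members are not replicates of the condition, and these shares are descriptions with no test.

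Knockout replicate 3 bore on the calls. Without it, 9 of 39 members were called (23.1%, against 13.2% of all genes): SRSF3, SRSF4, SRSF7, SRSF10, HNRNPH1, HNRNPR, SF3A2 and U2AF1 rose and HNRNPF fell. The share called higher was 20.5%, against 5.39% of all genes. The shares over all genes in this paragraph were not matched for level. Of the members, 33 averaged 50 CPM or more. In the fit on all libraries the median SE was 0.12 over members and 0.25 over all genes. Without it, 17 members (43.6%) had both remaining knockout libraries above WT, against 25.0% of all genes, and 5 (12.8%) had both below, against 23.5%. Leaving out any other library gave 0 or 1 called members by edgeR (7 to 11 with an unadjusted p below 0.05). Over all genes, those fits called 223 to 388 of 14319 to 14367 genes. An unadjusted p below 0.05 was reached by 2650 to 3176 genes. In replicate 3 itself, 4 members were at least 1.5-fold above the mean of the other knockout libraries (10.3%, against 17.8% of all genes): HNRNPM at 2.88-fold, SF3B2 at 2.03-fold, SRSF2 at 1.91-fold and HNRNPAB at 1.88-fold.

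**Figure D5:**
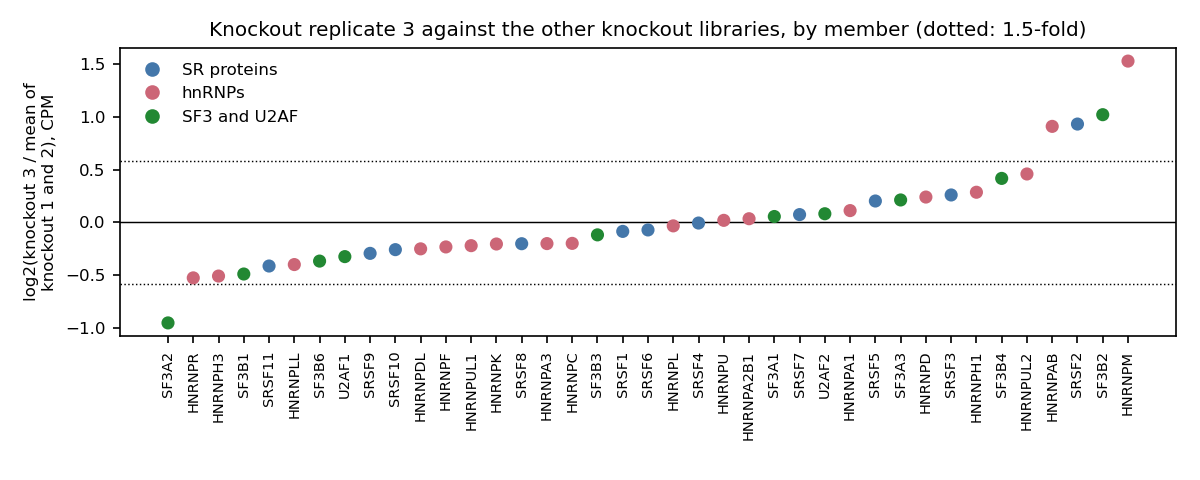
Log2 ratio of the CPM in knockout replicate 3 to the mean of knockout replicates 1 and 2 for each of the 39 tested members, ordered by value and coloured by family, with dotted lines at 1.5-fold. HNRNPM, SF3B2, SRSF2 and HNRNPAB lie above the upper line and SF3A2, at 0.517 times, below the lower one.

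Position in the genome was set beside the fold changes. Tested genes within 5 Mb of SRSF4 had a median log2 fold change of 0.29 (110 genes), whereas the whole of chromosome 1 had 0.01. Those around SRSF10 and HNRNPR, on the same arm, had medians of 0.30 and 0.29. The windows around SRSF4, SRSF10 and HNRNPR overlap one another, so their medians share genes and describe 1 region. Around HNRNPH1 the median was 0.22 (68 genes; 0.11 without knockout replicate 3), and around HNRNPF it was -0.12 (21 genes), with -0.18 over chromosome 10. For SF3B4 the neighbours had a median of -0.30 (101 genes). SRSF3, at 0.31, lay among genes with a median of -0.26, and SRSF6, at 0.00, among genes with a median of 0.27. The part of gene position or copy number in the members' values was not tested.

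All 12 SRSF genes, 13 of 18 HNRNP genes and 5 of 10 SF3 or U2AF genes have an annotated transcript that is a target of nonsense-mediated decay in GENCODE release 29. Together these are 75.0% of the members, against 46.6% of 11438 tested protein-coding genes, without matching for the number of annotated transcripts. The deposited values are per gene, so productive and unproductive transcripts could not be told apart.

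The rest of the splicing machinery was described by 11 lists of other factors, of which 199 genes were tested. Of these, 7 rose and 6 fell, which is 6.53%, below the 7.84% of all tested genes that were called. Their median log2 fold change was 0.13, against 0.05 over all genes. Without knockout replicate 3, 29 were called (14.6%, against 13.2% of all genes). Among 25 SR-related activators, SRRM1, a coactivator that bridges enhancer-bound SR proteins, rose by a log2 fold change of 0.60 ± 0.13 (edgeR adjusted p = 0.0414), and SREK1 rose by 0.44 ± 0.10 (edgeR adjusted p = 0.0407). Of 17 tested kinases, phosphatases and importers that act on SR proteins, 0 were called by edgeR (1 at an unadjusted p below 0.05) and 0 by DESeq2. Of 39 other hnRNP-type proteins, 1 rose and 3 fell, led by RALY at 0.89 ± 0.19 (edgeR adjusted p = 0.0392; 0.63 without knockout replicate 3) and PCBP4 at -0.79 ± 0.08 (edgeR adjusted p = 0.00449).

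Of 17 other U2 and branch-site factors only TFIP11, a factor in lariat-intron spliceosome disassembly, was called, lower by -0.52 ± 0.09 (edgeR adjusted p = 0.0188). Among 16 U5 and tri-snRNP proteins the helicase SNRNP200 rose by 0.89 ± 0.19 (edgeR adjusted p = 0.0391), and among 25 Prp19-complex and catalytic-step factors PLRG1 fell by 0.69 on the log2 scale (edgeR adjusted p = 0.0388). Of 12 minor-spliceosome proteins CENATAC rose by 0.95 and SCNM1 fell by 0.78 on the log2 scale (edgeR adjusted p = 0.00830 and 0.0276). SMG9, 1 of 15 exon junction and decay factors, rose by 0.48, and CLNS1A, 1 of 12 snRNP assembly factors, rose by 0.48 (edgeR adjusted p = 0.0409 and 0.0190). Among 15 Sm and LSm proteins and among 8 U1 proteins, edgeR called 0 genes and DESeq2 called 1 in each list. In each of these lists 3 genes had an unadjusted p below 0.05, a level that 24.7% of all genes reached, with no matching for abundance. In the 6 fits that left out a library, PCBP4 was called in 6 and CENATAC in 4. Every other gene named from the 11 lists was called in only 1, the fit without knockout replicate 3.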

How the data were processed

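The authors deposited whole numbers per gene, taken here as rounded estimated counts because Salmon 1.10.1 stands in the submitters' processing notes, as does build hg19, with no role for either. The authors also deposited RPKM, normalized per library count and gene length. The counts were tested with edgeR 4.0.16 in R 4.3.3 (TMM scaling, its default filter on low counts, quasi-likelihood test). The p-values of 13965 genes were adjusted by Benjamini-Hochberg and called below 0.05; 1 gene named differently in the tables was left out. CPM are TMM-scaled counts, except that levels per kilobase of exon use library totals without TMM scaling. The scripts were tested on simulated data. Alternatives were DESeq2 1.42.0, limma 3.58.1 on log2(RPKM + 1) and log2(RPKM + 0.1), other scalings, other filters and leaving out each library. No 2 libraries agreed within counting noise.

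Values in every library are printed for called members, the 4 highest by RPKM and the 2 largest rises and falls (mean of at least 5 CPM) in each family, and members whose call depended on 1 library. Each other list names at most 2 called genes, 1 per direction where both had calls; HNRNPA2B1 was added after its values were seen. Members and lists were chosen with earlier results of these data known. Gene positions come from GENCODE release 29 (GRCh38), not from the files' build. The comparison with genes of at least 50 CPM, the overlap counts without knockout replicate 3 and the medians of neighbouring genes were chosen after seeing the data.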

Additional observations from a re-analysis of the deposited data

How the results depend on the processing

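Over all genes, 1095 of 13965 were called (7.84%), against 1116 of 13965 with library size alone and 2068 of 15276 with DESeq2 (13.5%). With 1 library left out, 223 to 1899 were called, the highest without knockout replicate 3 (13.2% of genes). Of the 39 tested members, 3 were called (7.69%), 5 with DESeq2 (SF3B4 and SRSF7 added) and 5 with library size alone (SRSF7 and SRSF10 added). With 1 library left out, 0 to 9 members were called, the highest again without knockout replicate 3 (23.1%). Of 199 other splicing factors, 13 were called (6.53%), 20 with DESeq2 and 1 to 29 with 1 library left out (14.6% at the highest). SRSF4, HNRNPH1 and HNRNPF kept their sign in all 13 alternatives. Every fit that left out a library, the one without knockout replicate 3 included, had 1 library fewer. The cause of the lost calls was not tested. The median WT level of the members was 24.5 by deposited RPKM and 37.0 per kilobase of exon, a change of length. Their summed level was 1.101-fold higher in the knockout by TMM-scaled CPM and 1.15-fold by share of all counts. No paired analysis was possible because the knockout labels carry no replicate numbers that match those of WT. With 3 libraries a group, the median SE of a member was 0.12 on the log2 scale; the low counts of HNRNPUL2 gave an SE of 0.57.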
